A study of Mus musculus with 8 samples.

Results

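Chromatin modifiers are the enzymes and remodellers that write, erase or move the marks of DNA and histones. Here they are the genes on the array whose names mark DNA methyltransferases (Dnmt1, Dnmt3), TET dioxygenases (Tet1, Tet2, Tet3), histone deacetylases (Hdac), lysine demethylases (Kdm), Ezh1 and Ezh2, SET domain proteins (Setd, Setdb), arginine methyltransferases (Prmt) and SWI/SNF-related proteins (Smarc). Membership was decided by gene name alone, with no measured value. It took 197 probes of 73 genes out of 56605 distinct probes and 37039 gene names, and 69 of the 73 genes gave a signal strong enough to test, against 20086 genes of the whole array.

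RNA of cardiac mesenchymal stromal cells (cMSCs), sorted from the ventricles of male C57Bl/6 mice as cells with Sca-1 and PDGFRα and without CD45 and CD31, was measured on 1-colour Agilent arrays. The aged group was 4 pools from mice of 20 months (replicates 1 to 4) and the young group 4 pools from mice of 5 months (replicates 2 to 5), with no transgene or treatment named in the labels for either group. A pool held 3 mice, except that the title code of aged replicate 4 may stand for fewer. More than a single mouse line and a somewhat lower young age are named in the methods, and the sources used here do not say which line gave the pools. The spread given below is that between pools.

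DNA methyltransferases put methyl groups on cytosine, with Dnmt3a and Dnmt3b acting on unmethylated DNA and Dnmt1 copying the pattern at replication, and TET enzymes oxidise that mark and so start its removal. Ezh1 and Ezh2 are alternative catalytic subunits of Polycomb repressive complex 2 (PRC2), which methylates a lysine of the histone H3 tail, a mark that silences developmental and cell cycle genes and that Kdm6a and Kdm6b erase. Histone deacetylases remove acetyl groups, arginine methyltransferases modify histones and many other proteins, and SWI/SNF-related proteins slide or evict nucleosomes.

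All levels below are log2 processed signal relative to the 75th percentile of the same array, so that a level of 0 lies at that percentile, and they are compared between pools for 1 probe at a time. A gene with several probes is given by its brightest probe above background unless a probe is named. Differences are aged minus young, from limma across all 20086 genes with Benjamini-Hochberg adjustment, and a gene was called at an adjusted p under 0.05. The 8 arrays shared 1 slide, none had a saturated spot, and 57.8% to 63.4% of the spots of an array were well above background. In pools of sorted cells, a smaller share of cells expressing a gene and less RNA per cell cannot be told apart. The markers that the sort selected for were present, since Ly6a, which encodes Sca-1, and Pdgfra were well above background on all 8 arrays. So were Ptprc and Pecam1, which encode the excluded CD45 and CD31. Ptprc had mean levels of 1.44 in aged and 1.37 in young pools, and Pecam1 of -2.32 and -2.34. The other leukocyte markers tested, Cd52, Coro1a and Itgb2, had means of -2.11, -2.27 and -3.72 in aged pools. In young pools they were at -2.88, -2.96 and -4.10. Brightness of different probes gives no share of cells.

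Most chromatin modifiers differed little between aged and young cMSCs. Tet1 was the single member that fell, and none rose. Across the array, 0.792% of genes passed the same test downward and 2.36% upward, so 1 fall and 0 rises among 69 genes lie near that background. At an unadjusted p under 0.05, limma counted 4 of 69 members (5.80%), against 14.1% of all genes. At the looser rule of an unadjusted p up to 0.01 with a log2 change over 0.5, Tet1 was again the single member that was lower and 0 members were higher, against 1.26% and 3.22% of all genes.

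The differences were small in size as well. The fitted difference lay within 0.5 of 0 on the log2 scale for 67 of the 69 members (97.1%), against 92.6% of all genes, and the exceptions were Tet1 and Prmt1. For 51 members (73.9%) the whole 95% confidence interval stayed within that bound, against 62.2% of all genes. More members lay below 0 than above it, with 46 negative (66.7%) and 23 positive differences, where 49.6% of all genes were negative. The median over members was -0.047 and that over all genes 0.0016, a shift too small to read for a single gene.

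**Figure D1:**
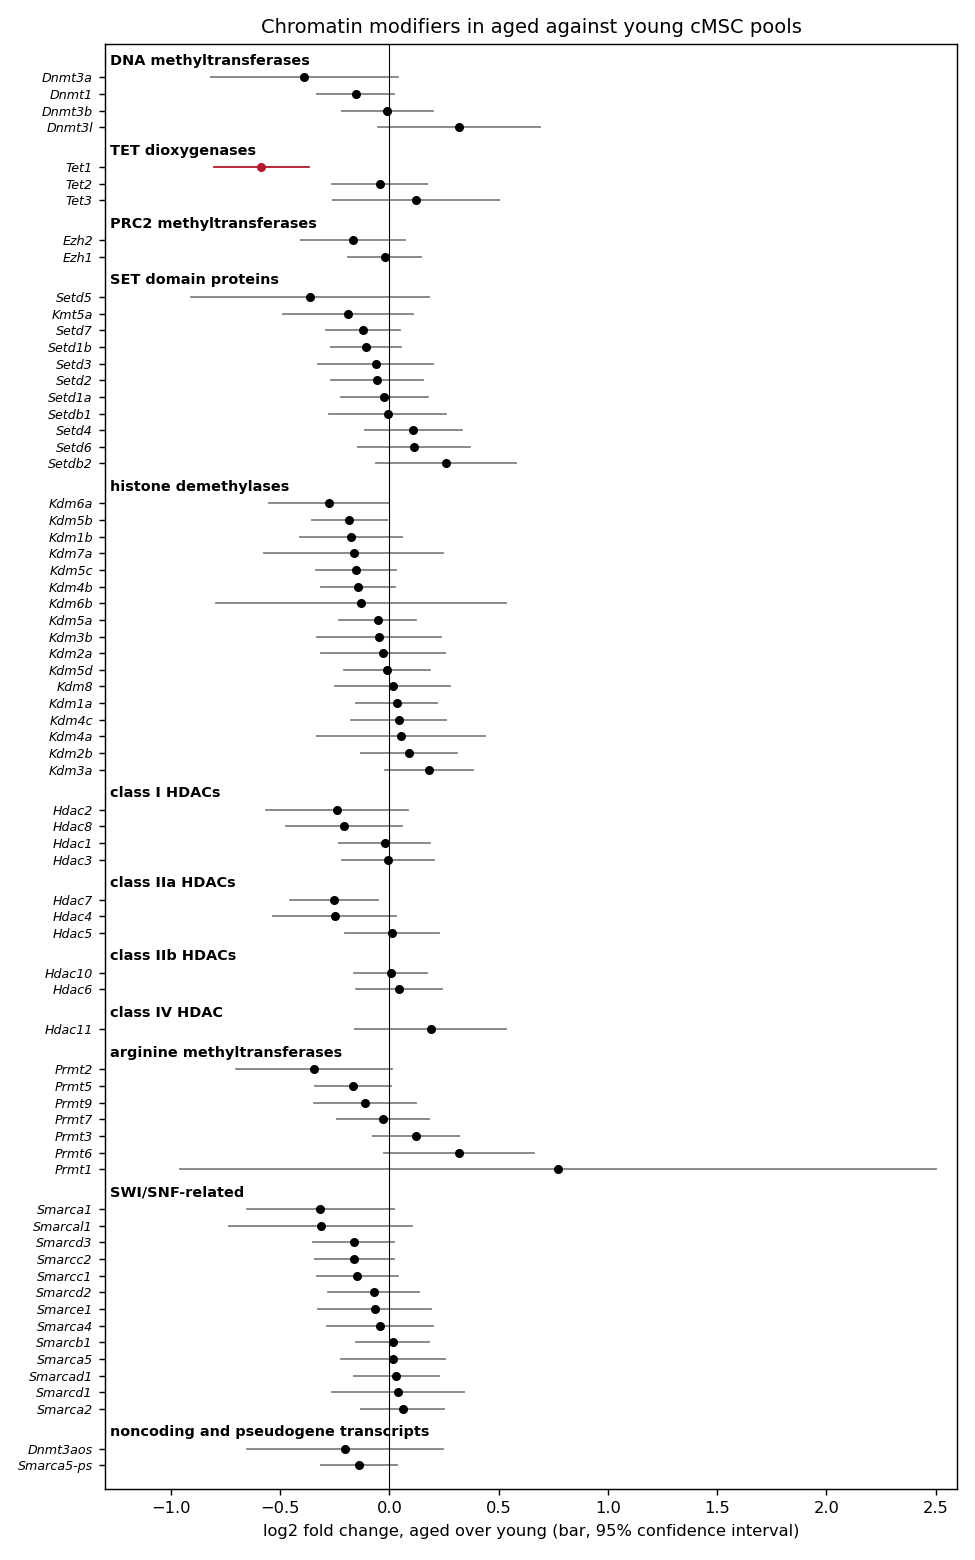
Log2 fold change of each of the 69 tested chromatin modifiers, aged over young cMSCs, in classes from top to bottom. Points are limma estimates from 4 aged and 4 young pools, bars are 95% confidence intervals, and red marks Tet1, at -0.59, the single gene past an adjusted p of 0.05. The bar of Prmt1 reaches from -0.96 to 2.50.

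The findings turned on probes of 4 genes, so part of each probe is shown to place it on its transcript. Each probe has 60 bases, of which 30 are printed 5′ to 3′ in the sense of the transcript, the first 30 except for Kdm4a A_55_P2496804, where the last 30 are shown because they hold the polyadenylation signal ATTAAA, in capitals. The letters AATAAA or ATTAAA stand in the last 30 bases of 10.8% of all 60-base probes on the array, on the strand of the probe. All 4 genes lie on the minus strand of mm9, and each gene's probes are listed from the 5′ to the 3′ side of the transcript.
Tet1 A_55_P2123002: taatcacatcaacgccgaggtcaggaatgc
Tet1 A_51_P512172: gaatctacagacttctgtcccctgcaggct
Tet1 A_55_P2122997: ctgtactcaaataacacacggcttctgttc
Ezh2 A_55_P2619337: aagacgaaactgttttacataacattcctt
Ezh2 A_55_P2619332: agaggataatcgagatgataaagaaacttg
Ezh2 A_55_P2619322: ctccatgtttagagtcctcattggtactta
Ezh2 A_51_P248067: atgataaatacatgtgcagctttctgttca
Ezh2 A_55_P2041397: gctgcaaagtgttttgtaccagtgagtttt
Kdm4a A_55_P2496804: tcattgcATTAAAgctgtgggattctttta
Kdm4a A_55_P2735880: ggagggcttcataccttgctctgtatacag
Prmt1 A_55_P2739535: aatgaggcccaatgccaaaaacaatcgtga
Prmt1 A_55_P2021821: gggtacatcgtgactgtgtttttcataact

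Among TET dioxygenases, Tet1 fell to 0.666 times its young level. Its brightest probe, A_55_P2122997 at chr10:62274448-62274507 on the 3′ side of the gene, read -1.49, -1.45, -1.50 and -1.71 in aged pools 1 to 4, against -0.96, -0.96, -1.10 and -0.79 in young pools 2 to 5. Every aged pool lay below every young pool. The difference was -0.59 ± 0.096 (SE) with an adjusted p of 0.0152, with a 95% confidence interval of -0.80 to -0.37. An exact permutation test over the pools gave p = 0.0286 (two-sided), the smallest that 4 against 4 allows. Any gene whose groups do not overlap reaches that value, so it adds nothing to the lack of overlap. The Tet1 difference was -0.73 between the pools in the first row of the slide and -0.44 between those in the second. Each row held 2 aged and 2 young arrays. With any 1 pool left out, the difference stayed between -0.64 and -0.53 and the adjusted p between 0.0223 and 0.0506, the highest without young replicate 3. The call was also lost with no filter on dim probes (adjusted p = 0.082) and with a block for the pool code (0.0539) or the pool number (0.212), and the 6 pools numbered in both groups gave 0.0856 without the block.

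The 3 Tet1 probes did not move alike. The probe nearest the 5′ side, A_55_P2123002 at chr10:62301856-62301915, also had all aged pools below all young pools, at -2.88, -3.04, -2.95 and -2.98 in aged pools 1 to 4, against -2.49, -2.11, -2.73 and -1.81 in young pools 2 to 5. It differed by -0.68 ± 0.18 (SE), with an adjusted p of 0.108 over 30824 probes tested one by one. The probe between these, A_51_P512172 at chr10:62276042-62276101, read -3.01, -2.69, -2.90 and -2.90 in aged pools 1 to 4, against -2.69, -3.09, -3.17 and -2.28 in young pools 2 to 5, and its groups overlapped, with a difference of -0.068 ± 0.19 (SE). Averaging the 3 probes left a difference of -0.44 with an adjusted p of 0.161, so the call holds for the brightest probe and not for the mean.

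Tet2 and Tet3, which carry the same catalytic domain, gave differences close to 0. Tet2 read 0.44, 0.37, 0.63 and 0.50 in aged pools 1 to 4, against 0.48, 0.37, 0.61 and 0.66 in young pools 2 to 5, a difference of -0.044 ± 0.095 (SE) with an adjusted p of 0.917. The aged and young pools of Tet2 overlapped over nearly their whole range, and its 95% confidence interval was -0.26 to 0.17. Tet3 read -2.54, -2.88, -2.51 and -2.37 in aged pools 1 to 4, against -2.81, -2.30, -3.01 and -2.66 in young pools 2 to 5, a difference of 0.12 ± 0.17 (SE) with an adjusted p of 0.86, with pools of each group at either end, and it ranged from 0.017 to 0.25 with 1 pool left out.

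In PRC2, Ezh1 differed little and all 5 Ezh2 probes were lower in aged cMSCs, by unequal amounts. Ezh1, the subunit that dominates in cells that do not divide, read 4.82, 4.91, 4.78 and 4.72 in aged pools 1 to 4, against 4.88, 4.84, 4.75 and 4.83 in young pools 2 to 5, and its difference of -0.021 ± 0.074 (SE) had a 95% confidence interval of -0.19 to 0.15. Ezh2, the subunit linked to dividing cells, was read by its brightest probe, A_55_P2041397 at the 3′ side (chr6:47480307-47480366), at -1.87, -1.53, -1.56 and -1.81 in aged pools 1 to 4, against -1.60, -1.58, -1.36 and -1.55 in young pools 2 to 5. These groups overlapped, and the difference of -0.17 ± 0.10 (SE) with an adjusted p of 0.576 did not pass.

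The Ezh2 probes farther towards the 5′ side showed larger differences. A_55_P2619337 at chr6:47506086-47506145 read -2.22, -2.08, -2.09 and -2.01 in aged pools 1 to 4, against -1.77, -1.48, -1.77 and -1.60 in young pools 2 to 5, with no overlap. Tested probe by probe, it fell by 0.45 ± 0.096 (SE) with an adjusted p of 0.0491, where 0.62% of all probes fell and 1.91% rose at that threshold. Its neighbour A_55_P2619332, which spans an intron at chr6:47502445-47504139, read -2.17, -1.84, -1.70 and -2.03 in aged pools 1 to 4, against -1.47, -1.16, -1.47 and -1.60 in young pools 2 to 5. Here too the groups did not overlap, and the difference was -0.51 ± 0.13 (SE) with an adjusted p of 0.0973. The next probes in the 3′ direction, A_55_P2619322 and A_51_P248067, differed by -0.34 ± 0.17 and -0.20 ± 0.17 (SE), with overlapping groups. The mean of the 5 probes differed by -0.33 with an adjusted p of 0.102, so the gene was not called by either summary. The order of the probes was examined after their values were seen, and no test was made of it.

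**Figure D2:**
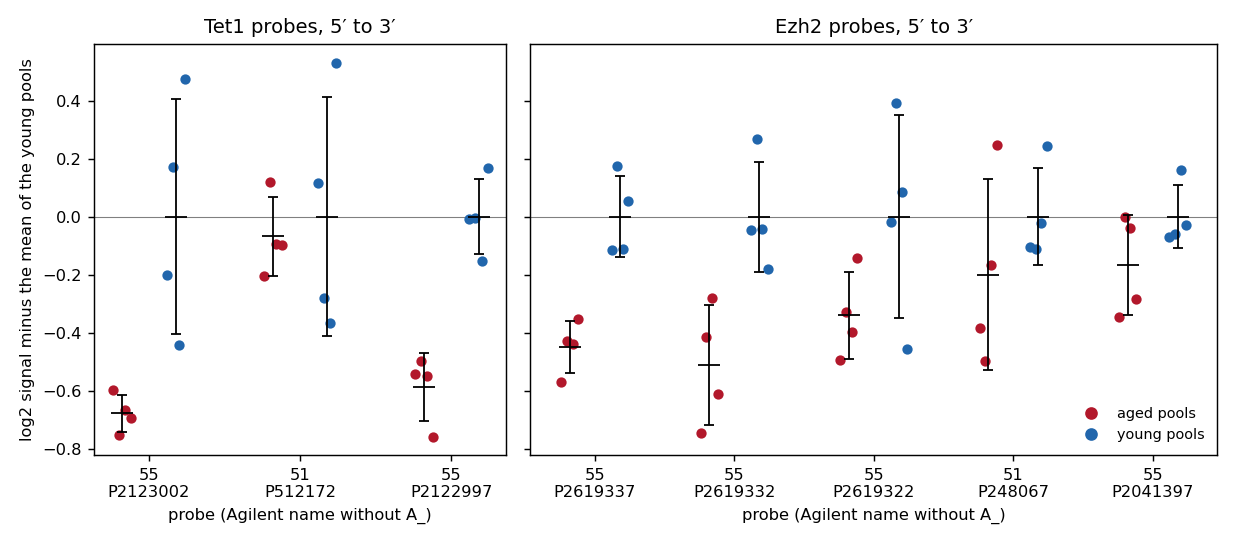
Log2 signal of each Tet1 and Ezh2 probe in each pool, minus the mean of the young pools for that probe, with probes ordered from the 5′ to the 3′ side of the transcript. Points are pools, aged in red and young in blue, with the mean as a dash and the SD as a bar (n = 4). The aged pools lie wholly below the young pools for 2 of the 3 Tet1 probes and for the 2 Ezh2 probes nearest the 5′ side.

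Since Ezh2 is known to follow proliferation, markers of dividing cells were read beside it. Of 11 tested markers, including Mki67, Top2a and Ccnb1, 0 passed the test in either direction and 0 had an unadjusted p under 0.05 in limma, with a median difference of 0.028. Their summed linear signal was 14.1 to 15.8 in aged pools, against 13.5 to 14.9 in young pools. Pcna, at a mean of 3.10 in aged and 3.03 in young pools, made up most of that sum, which hardly reflects Mki67 or Top2a. In aged replicate 4, Mki67 and Top2a were at their lowest, -2.22 and -4.26, and Ccnb1 at its highest, -1.65. The other PRC2 genes, Eed, Suz12, Jarid2 and 7 more, gave 0 calls among 10, with a median of 0.028. Jarid2, which helps PRC2 find its targets, differed by -0.46 ± 0.18 (SE) with an adjusted p of 0.277, its aged pools all below the young pools. In PRC1, the complex that binds the PRC2 mark, Bmi1 and Pcgf5 had all aged pools above all young pools, with differences of 0.34 ± 0.080 (SE) with an adjusted p of 0.063, and 0.52 ± 0.12 (SE) with an adjusted p of 0.0544, neither past the threshold.

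DNA methyltransferases gave 0 calls among 4 genes. Dnmt3l was the 1 gene of the class with a positive difference, 0.32 ± 0.16 (SE) with an adjusted p of 0.445, and its groups overlapped. Dnmt3a showed the largest difference of the class and of all members after Prmt1 and Tet1, at -0.39 ± 0.19 (SE) with an adjusted p of 0.41. It read 0.70, 0.89, 0.42 and 0.11 in aged pools 1 to 4, against 1.05, 0.73, 1.20 and 0.70 in young pools 2 to 5. Aged replicate 4 was the lowest pool and young replicate 4 the highest, the groups overlapped, and without aged replicate 4 the difference was -0.25. Its second probe above background differed by -0.28 ± 0.14 (SE). Dnmt1, the maintenance enzyme, read -1.15, -1.15, -1.01 and -1.21 in aged pools 1 to 4, against -1.05, -0.94, -1.02 and -0.89 in young pools 2 to 5, a difference of -0.15 ± 0.078 (SE) with an adjusted p of 0.44. Dnmt3b, which shares the de novo role, read -0.25, -0.24, 0.036 and -0.0024 in aged pools 1 to 4, against -0.091, -0.18, -0.094 and -0.056 in young pools 2 to 5, a difference of -0.0096 ± 0.092 (SE) that lay well inside the spread of its pools.

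Readers of DNA methylation and partners of the DNA methyltransferases, 13 genes in all, likewise gave 0 calls, with 2 at an unadjusted p under 0.05. Dnmt3aos, a transcript antisense to Dnmt3a, read -3.90, -4.52, -3.74 and -3.87 in aged pools 1 to 4, against -3.88, -3.86, -3.41 and -4.07 in young pools 2 to 5, a difference of -0.20 ± 0.20 (SE) with an adjusted p of 0.77. Dnmt3bos, the counterpart at Dnmt3b, was not well above background.

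Class IIa histone deacetylases, which shuttle between nucleus and cytoplasm and restrain MEF2 factors, held the lowest class median, -0.25 over 3 tested genes. Hdac7 read 3.57, 3.80, 3.72 and 3.61 in aged pools 1 to 4, against 4.04, 3.80, 3.87 and 3.99 in young pools 2 to 5. The aged pools all lay below the young pools, and the difference of -0.25 ± 0.088 (SE) with an adjusted p of 0.213 had an unadjusted p of 0.0201. Hdac4 read -0.054, -0.10, -0.23 and -0.17 in aged pools 1 to 4, against 0.0099, -0.047, 0.014 and 0.48 in young pools 2 to 5, also without overlap. Young replicate 5 was the highest Hdac4 pool by a wide margin, and the difference of -0.25 ± 0.12 (SE) with an adjusted p of 0.425 was -0.13 without it. Aged pools lay wholly below young pools for 6 of the 69 members, Tet1, Hdac4, Hdac7, Kdm5b, Prmt5 and Smarcc2, where 4.06% of all genes did so, and wholly above for 1 member, Prmt6, where 6.68% of all genes did so. Hdac5 differed by 0.013 ± 0.094 (SE), and Hdac9, the remaining member of the class, was not well above background with any of its 6 probes on all arrays of a group.

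In class I, where Hdac1 and Hdac2 are the deacetylases of the Sin3, NuRD and CoREST complexes, 0 of 4 genes passed. Hdac2 read -3.70, -3.68, -3.34 and -3.70 in aged pools 1 to 4, against -3.33, -3.71, -3.32 and -3.11 in young pools 2 to 5, and its difference was -0.24 ± 0.14 (SE) with an adjusted p of 0.548. Hdac8 read -2.74, -3.07, -3.005 and -2.67 in aged pools 1 to 4, against -2.80, -2.74, -2.50 and -2.62 in young pools 2 to 5, a difference of -0.21 ± 0.12 (SE) with an adjusted p of 0.517. The pools of each gene overlapped between groups. Hdac1 and Hdac3 differed by -0.021 ± 0.091 and -0.0083 ± 0.092 (SE), with signs that turned in other settings. Sin3, NuRD, CoREST and NCoR genes outside the rule gave 0 calls among 22, with 3 at an unadjusted p under 0.05.

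The remaining deacetylases gave 0 calls. Hdac6, a cytoplasmic tubulin deacetylase, read 1.103, 1.02, 1.09 and 1.05 in aged pools 1 to 4, against 1.09, 0.94, 0.87 and 1.19 in young pools 2 to 5, and differed by 0.044 ± 0.087 (SE). Hdac10, a polyamine deacetylase, read 1.61, 1.59, 1.57 and 1.67 in aged pools 1 to 4, against 1.61, 1.70, 1.62 and 1.49 in young pools 2 to 5, and differed by 0.0057 ± 0.074 (SE), with a 95% confidence interval of -0.16 to 0.17. Hdac11, the class IV enzyme, read -3.45, -3.48, -3.66 and -3.42 in aged pools 1 to 4, against -4.04, -3.56, -3.33 and -3.84 in young pools 2 to 5, a difference of 0.19 ± 0.15 (SE) with an adjusted p of 0.702, with the young pools spread more widely than the aged pools and a range of 0.073 to 0.31 with 1 pool left out. Histone acetyltransferases, the opposing enzymes, gave 0 calls among 12, with 10 negative differences and a median of -0.076.

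Lysine demethylases were the largest class, with 17 of 18 genes tested and a median of -0.047. Kdm4d was not well above background. Kdm5b, which removes methyl groups that mark active promoters, read 3.18, 3.38, 3.27 and 3.20 in aged pools 1 to 4, against 3.49, 3.49, 3.41 and 3.38 in young pools 2 to 5. The aged pools sat just under the young pools, a difference of -0.18 ± 0.076 (SE) with an adjusted p of 0.311, and all 5 of its tested probes were negative, from -0.35 to -0.030. Kdm6a, the X-linked eraser of the PRC2 mark, read -3.14, -3.20, -2.99 and -2.74 in aged pools 1 to 4, against -2.90, -2.71, -2.77 and -2.57 in young pools 2 to 5. Among aged pools, replicate 4 overlapped the young pools, and the difference was -0.28 ± 0.12 (SE) with an adjusted p of 0.346. Its relative Kdm6b, which is induced by inflammatory signals, ranged from 1.16 to 2.59 in aged pools, against 1.60 to 2.0 in young pools. Aged replicate 4 was the highest Kdm6b pool of all, while the other aged pools lay at the low end, with differences of -0.13 ± 0.29 (SE) over all pools and -0.44 without that pool (adjusted p = 0.257). Its sign turned in other settings, to 0.034 without aged replicate 1 and 0.11 over the 6 pools that share a number, so no direction is given for it.

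Kdm4a, which removes methyl groups from histone H3, had probes of 2 transcripts that disagreed. The probe of the RefSeq transcript NM_172382, A_55_P2496804 at chr4:117814648-117814707, read -2.83, -3.01, -2.75 and -2.98 in aged pools 1 to 4, against -3.39, -3.52, -3.35 and -4.28 in young pools 2 to 5. All aged pools were above all young pools, a difference of 0.74 ± 0.20 (SE) with an unadjusted p of 0.00505 and an adjusted p of 0.108 over all probes. Young replicate 5 was the lowest, and the difference of the group means without it was 0.53. The probe of NM_001161823, A_55_P2735880 at chr4:117809645-117809704, which stands for the gene, read 1.93, 2.09, 1.89 and 1.79 in aged pools 1 to 4, against 2.13, 1.87, 2.10 and 1.37 in young pools 2 to 5, and differed by 0.054 ± 0.17 (SE). Taken relative to the other probe in the same pool, the NM_172382 probe was higher in aged than in young pools by 0.69 (pool SDs 0.20 and 0.11, n = 4 each). Kdm4a was singled out after its values were seen, because these probes disagreed, so no p-value is given for that comparison. It also says nothing of the amounts of the transcripts.

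SET domain proteins, among them Setd2, which marks transcribed gene bodies, and Setdb1, which marks heterochromatin, were all tested and gave 0 calls among 11. Setdb2, a relative of Setdb1 induced by interferon, read -0.85, -0.40, -0.44 and -0.21 in aged pools 1 to 4, against -0.67, -0.90, -0.58 and -0.77 in young pools 2 to 5. Its 3 probes were all positive, from 0.17 to 0.32, but aged replicate 1 lay among the young pools, and the difference was 0.26 ± 0.14 (SE) with an adjusted p of 0.491. Setd7, a lysine methyltransferase of histone and other proteins, read 3.55, 3.68, 3.53 and 3.48 in aged pools 1 to 4, against 3.69, 3.61, 3.73 and 3.70 in young pools 2 to 5, a difference of -0.12 ± 0.074 (SE) with an adjusted p of 0.561. Kmt5a, named Setd8 on the array and responsible for monomethylation of histone H4, was negative with all 5 probes, from -0.35 to -0.065. The other histone lysine methyltransferases outside the rule gave 0 calls among 21.

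Arginine methyltransferases held the largest difference of any member, and it rested on 1 pool. Prmt1, the main enzyme of asymmetric arginine dimethylation, read 3.90, 3.96, 3.71 and 3.62 in aged pools 1 to 4, against 3.95, 3.82, 4.01 and 0.34 in young pools 2 to 5 with A_55_P2021821 (chr7:52232148-52232207). Young replicate 5 stood 11.8 times below the median of the other 7 pools, which all lay between 3.62 and 4.01. The second probe, A_55_P2739535, showed the same pool 12.7 times below the median of the other pools, at -1.14 where they read 2.38 to 2.71. The fitted difference of 0.77 ± 0.76 (SE) with an adjusted p of 0.777 became -0.13 without young replicate 5, which turned its sign.

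Young replicate 5 stood apart for other members too, by over 1 log2 unit from the median of the other 7 pools. Probes of Setd5, Kdm2a, Kdm5c and Tet1 were higher than that median, and the NM_172382 probe of Kdm4a was lower. Setd5, a SET domain protein without settled enzymatic activity, had a probe, A_55_P2487974, at -1.12 in that pool, where the other 7 pools read -4.62 to -3.83. The brightest Setd5 probe, A_52_P448304, read 1.94, 2.07, 1.93 and 1.68 in aged pools 1 to 4, against 2.07, 1.88, 2.08 and 3.05 in young pools 2 to 5. Its difference was -0.36 ± 0.24 (SE) over all pools and -0.10 without young replicate 5. Among the 166 tested member probes, 8 differed by over 1 log2 unit from the median of the other pools in young replicate 5, against 0 to 2 in every other pool. Over the whole array, 767 of 20086 genes did so in young replicate 5, a share near that of the member probes. Aged replicate 4 had 675 such genes, against 234 to 374 in the other pools. By over 3 log2 units, 17 genes were lower in young replicate 5 and 18 were higher in aged replicate 4.

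**Figure D3:**
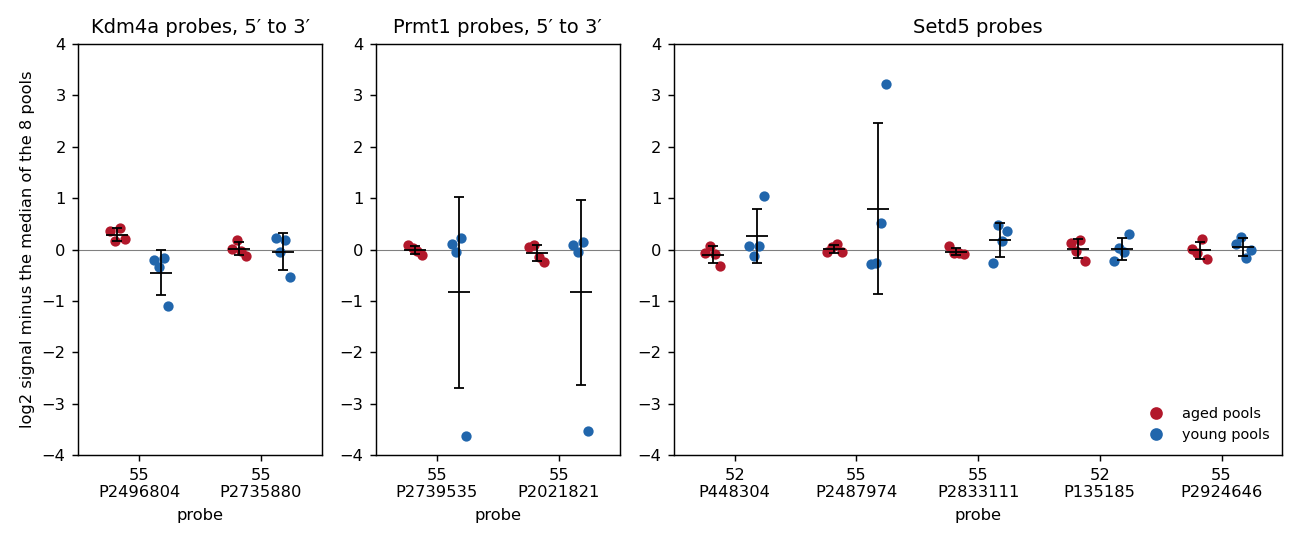
Log2 signal of each tested Kdm4a, Prmt1 and Setd5 probe in each pool, minus the median of the 8 pools for that probe. Points are pools, aged in red left of young in blue, with the mean as a dash and the SD as a bar (n = 4). A single young pool, replicate 5, sits far below the rest for both Prmt1 probes and above it for 2 Setd5 probes, while the Kdm4a probe A_55_P2496804 separates all aged from all young pools.

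The other arginine methyltransferases gave 0 calls. Prmt2, a coactivator of nuclear receptors, read 3.71, 3.79, 3.68 and 3.08 in aged pools 1 to 4, against 3.88, 3.93, 4.05 and 3.78 in young pools 2 to 5. Aged replicate 4 was the lowest, and the difference of -0.34 ± 0.16 (SE) with an adjusted p of 0.375 was -0.18 without it. Its 3 probes were all negative, and for A_55_P2496172 and A_55_P2739368 the aged pools lay wholly below the young pools, with differences of -0.48 ± 0.18 and -0.50 ± 0.17 (SE) and adjusted p of 0.278 and 0.225 over all probes. Prmt5, the main enzyme of symmetric dimethylation, read 0.49, 0.46, 0.43 and 0.26 in aged pools 1 to 4, against 0.58, 0.57, 0.52 and 0.63 in young pools 2 to 5. Its aged pools were all below its young pools by a small step of -0.17 ± 0.077 (SE) with an adjusted p of 0.386. Prmt6, which methylates histone H3, was the single member with aged pools wholly above young pools, at 0.32 ± 0.15 (SE), with young replicate 3 the lowest pool, at -3.22, and a difference of 0.16 without it. Prmt8, known from brain, was too dim to be tested.

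SWI/SNF-related proteins, 13 genes and all tested, gave 0 calls and a median of -0.068. The ATPases of the SWI/SNF complex, Smarca2 and Smarca4, differed by 0.061 ± 0.083 and -0.042 ± 0.11 (SE), and its core subunit Smarcb1 by 0.014 ± 0.072 (SE). Smarca1, the ATPase of a separate remodeller of the ISWI family, read -0.18, 0.021, -0.24 and -0.70 in aged pools 1 to 4, against 0.12, -0.086, 0.11 and 0.020 in young pools 2 to 5. Aged replicate 4 was again the lowest pool, and the difference of -0.32 ± 0.15 (SE) with an adjusted p of 0.39 was -0.17 without it. All 5 tested Smarca1 probes were negative, from -0.39 to -0.22. Smarcc2, a scaffold subunit, read 0.48, 0.54, 0.55 and 0.33 in aged pools 1 to 4, against 0.68, 0.62, 0.69 and 0.56 in young pools 2 to 5, with no overlap and a difference of -0.16 ± 0.079 (SE) with an adjusted p of 0.425.

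Smarcal1, a DNA annealing helicase at stalled replication forks, had probes that disagreed. Its brightest probe read -0.12, 0.20, -0.23 and -0.77 in aged pools 1 to 4, against 0.11, 0.12, 0.15 and -0.038 in young pools 2 to 5, a difference of -0.31 ± 0.18 (SE) with an adjusted p of 0.534, and the difference was -0.13 without aged replicate 4. Its other tested probes differed by 0.042 ± 0.11 and 0.22 ± 0.14 (SE). The pseudogene transcript Smarca5-ps read 0.55, 0.71, 0.56 and 0.55 in aged pools 1 to 4, against 0.83, 0.66, 0.69 and 0.75 in young pools 2 to 5, a difference of -0.14 ± 0.077 (SE) with an adjusted p of 0.505, and its probes may also read Smarca5, from which it derives. Smarca5 itself differed by 0.017 ± 0.10 (SE). SWI/SNF subunits outside the rule gave 0 calls among 15, with 11 negative differences.

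Across the classes, the medians over genes overlapped between aged and young pools in every class but class IIa. Over all 69 members the pool medians, relative to the young mean of each gene, were -0.095 to -0.0014 in aged pools and -0.063 to 0.058 in young pools. Of the members with several tested probes, 35 of 51 had all probes on 1 side of 0 (68.6%), against 62.2% of all such genes. Of these 35 genes, 26 were negative with every probe and 9 positive.

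**Figure D4:**
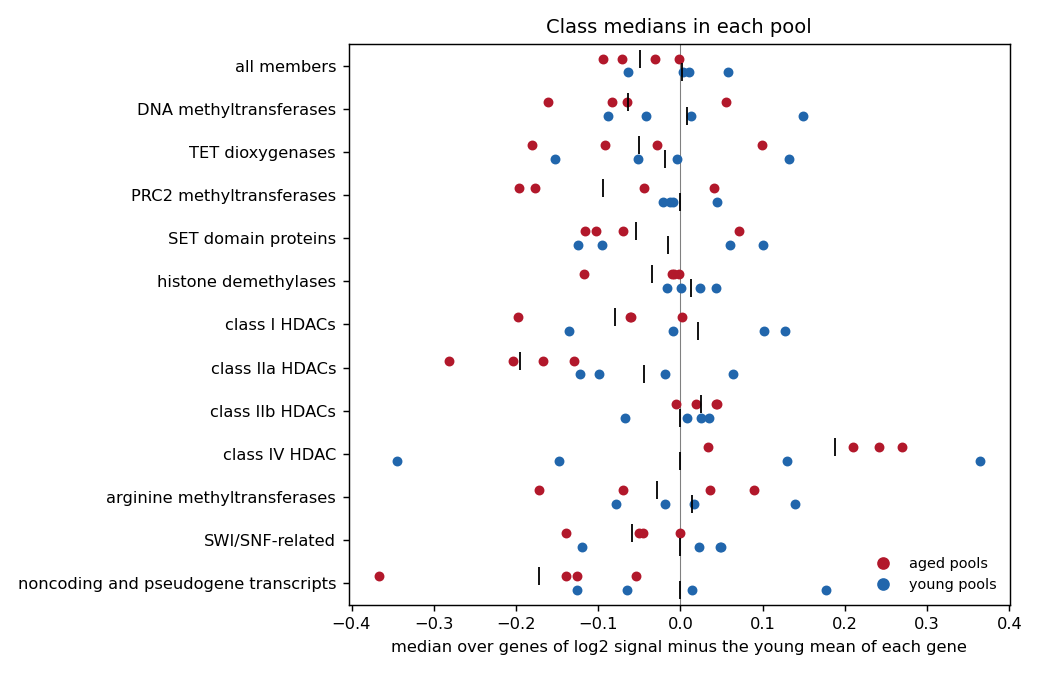
Median over the genes of each class of the log2 signal minus the young mean of each gene, for each of the 4 aged pools (red, upper) and 4 young pools (blue, lower), with the mean of the pools as a vertical dash. The aged points lie wholly left of the young points for class IIa HDACs alone, where 3 genes were tested.

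Genes of the same machinery outside the naming rule gave a like picture. Of 125 tested genes in 9 lists, 0 rose and 0 fell, and 13 had an unadjusted p under 0.05 in limma (10.4%), against 14.1% of all genes. The smallest p-values belonged to Pcgf5, Bmi1 and Hr, a corepressor with demethylase activity, which differed by -0.47 ± 0.11 (SE) with an adjusted p of 0.0682. The list medians ran from -0.15 for other demethylases to 0.040 for readers of DNA methylation.

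Markers of other cells moved with age beside these results. Neutrophil markers rose for 3 of 5 tested genes, S100a9, Ly6g and Camp, and their summed linear signal was 3.59 to 10.4 in aged pools, highest in aged replicate 4, against 1.87 to 2.61 in young pools. Cardiomyocyte markers fell for 2 of 8, Tnni3 and Pln. The list had summed signals of 5.50 to 9.30 in aged pools, against 9.29 to 11.4 in young pools, a slight overlap. Of its 8 differences 7 were negative, and Myh7 was the exception, at 0.49 ± 0.21 (SE) with an adjusted p of 0.339. Across the array, 2.36% of genes rose and 0.792% fell. Leukocyte and macrophage lists gave 0 calls among 4 and 7 genes, with 1 and 0 at an unadjusted p under 0.05. Most of their differences were positive, 4 of 4 leukocyte genes with a median of 0.534 and 6 of 7 macrophage genes with a median of 0.214. Confidence intervals stayed within 0.5 of 0 for 1 of the 4 leukocyte genes and 0 of the 7 macrophage genes. The lack of calls therefore does not show that these lists stayed level. Of 7 markers of the sorted cells, 1 fell, Thy1, which encodes CD90, by a difference of -0.71 ± 0.15 (SE) with an adjusted p of 0.0476. Ly6a differed by 0.67 ± 0.15 (SE) with an adjusted p of 0.0517 and did not pass, though all its aged pools lay above all its young pools. The part of such other cells in the differences of Tet1, Ezh2 and the other members was not tested. Without aged replicate 4, Tet1 differed by -0.53 (adjusted p = 0.0318 in limma). That is no test of other cells, since the remaining aged pools still had neutrophil sums of 3.59 to 4.39, above all young pools.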

How the data were processed

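RNA of cMSCs sorted from 4 pools of aged and 4 pools of young mouse hearts was measured on 8 Agilent 1-colour arrays. For each array the authors deposited scanner files, with intensities extracted by Agilent Feature Extraction 10.10.1.1, and a table of log2 values that they had quantile-normalized and not centred. The processed intensity deposited is background-subtracted and detrended, with no scaling between arrays. Groups and pool numbers came from the sample labels.

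Control spots and spots marked as outliers were left out, and the 75th percentile of each array was subtracted from log2 processed signal. A probe had to be well above background on each of the 4 arrays in at least 1 group. A gene was represented by its brightest such probe. The test between groups was that of limma 3.58.1 (R 4.3.3), without covariates, over 20086 genes, and an exact permutation test is given for Tet1 alone. Intensities have no counting depth, so the number of arrays limits the precision. The code was tested on simulated data. Probes were named by accession through a GRCm38.p6 gene table where it held them (33881 of 56605), and mm9 positions were taken from the array design.

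The naming rule takes genes by name alone, but that rule and the lists were set with earlier results of these data known. A member is described by pool when it passed an adjusted p of 0.05 or an unadjusted p of 0.01, when it was among the 2 smallest p-values of its class, or when it was one of Dnmt1, Dnmt3a, Dnmt3b or the Tet and Ezh genes. Members are also named for the largest changes or for probes that disagreed by over 0.5 log2 units. Alternatives covered scaling, background correction, the filter, the summary of probes, the slide row, pairing by pool number, array weights, the authors' log2 table and each pool left out.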

Additional observations from a re-analysis of the deposited data

Results flagged for a closer look

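In 5 cases among the members described by pool, 1 pool lay far from the other pools of its group. The gap was past the 95% critical value of Dixon's test. Such a gap is met by chance in about 1 of 20 groups of 4, and each gene gave 2 groups, so some are expected by chance. The list does not cover every member. Setd4, for example, read 1.30 in aged replicate 4, against 1.51 to 1.52 in the other aged pools. All 5 concern genes that did not pass the test between groups, and all values are log2 signal on the scale used above.

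Prmt1 read 0.339 in young replicate 5, where the other young pools read 3.82 to 4.01, and both of its probes showed the same. Hdac4 read 0.477 in the same pool, against -0.047 to 0.014 in the other young pools. Prmt2 read 3.08 in aged replicate 4, against 3.68 to 3.79 in the other aged pools. Hdac2 read -3.34 in aged replicate 3, against -3.70 to -3.68 in the other aged pools. Smarca5-ps read 0.712 in aged replicate 2, against 0.546 to 0.559 in the other aged pools. The part of a single pool's cells or of its array in these readings was not tested.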

How the results depend on the processing

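The absence of any member that rose held in all alternatives. The count of members that fell was 1 in most settings. It was 0 with no filter on dim probes, with the mean of all probes, with the pool number or the pool code as a block, over 6 pools without a block and without young replicate 3, and 2 with probes in place of genes. Tet1 stayed lower in all 23 alternatives, between -0.64 and -0.44, and passed in 17. Its adjusted p was 0.082 with no filter, 0.161 with the mean of all probes and 0.0506 without young replicate 3. Deviations of pools with the same number correlated at 0.181, -0.17 and -0.269. Aged replicate 1 and young replicate 5, whose title codes share their digits, gave 0.144. These values cannot settle whether pools were handled in pairs. With the pool number as a replicate block over 6 pools the adjusted p of Tet1 was 0.212, against 0.0856 for the same 6 pools without the block, and with the pool code as a replicate block it was 0.0539. Over the whole array, that first block left 14 rises and 2 falls, the same 6 pools without it 185 and 49, the pool code 206 and 51, and no filter 199 and 45, against 475 and 159. The 6 pools and the pool code were added after the data had been seen.

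At the looser rule, 0 members were lower with normexp background correction, with the mean of all probes and with the authors' log2 table. With single probes, 3 of 166 were lower and 1 higher. The share of all features at that rule is given for genes in the main setting alone, 1.26% lower and 3.22% higher. The probe counts are therefore not read as a change in the members. Members whose groups did not overlap numbered 7 of 69, and 2 with median scaling and 11 with the mean of all probes or the authors' log2 table. They numbered 17 among 166 probes, 13 over 6 pools and 7 to 15 with 1 pool left out. The share of all genes is given for the main setting alone, 4.06% below and 6.68% above. Smaller groups also separate more readily by chance, so these counts are not read as a change in the members. The member median ranged from -0.0984 to -0.0222 with 1 pool left out, lowest without young replicate 3. Median scaling set the median of all genes to -0.041 and that of the members to -0.090, and made 79.7% of members and 60.3% of all genes negative, against 66.7% and 49.6%. Among classes, the PRC2 median was -0.187 with the mean of all probes and -0.184 with single probes. The class IIa median was -0.124 with no filter, -0.158 over 6 pools with or without the block, and -0.293 to -0.13 with 1 pool left out. The class IIb median was -0.0173 with median scaling, and the arginine methyltransferase median was -0.134 over 6 pools. The cause of these shifts was not tested.

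Signs turned only for genes that did not pass. Prmt1 was -0.161 over 6 pools with or without the block and -0.126 to 1.1 with 1 pool left out, negative without young replicate 5. Kdm4a was -0.114 over 6 pools, -0.0708 with array weights and -0.113 to 0.141 with 1 pool left out. Dnmt3b was 0.000481 with cyclic loess, 0.0522 over 6 pools, 0.0018 in the authors' log2 table and -0.0601 to 0.0357 with 1 pool left out. Hdac10 was -0.0367 with median scaling, -0.0328 over 6 pools, -0.0207 with array weights and -0.0329 to 0.0386 with 1 pool left out. Tet2 was 0.0155 over 6 pools and 0.00411 with array weights. Kdm6b was 0.105 over 6 pools with or without the block and -0.44 to 0.0342 with 1 pool left out. Hdac3 was 0.00264 with cyclic loess, 0.0638 with the mean of all probes, 0.0423 over 6 pools with or without the block, 0.0381 with array weights and -0.0623 to 0.0601 with 1 pool left out. Hdac5 was -0.0298 with median scaling, -0.0363 with array weights, -0.00823 in the authors' log2 table and -0.0492 to 0.0585 with 1 pool left out. Smarca5 was -0.0251 with median scaling, -0.0468 with the mean of all probes, -0.0125 with array weights and -0.0614 to 0.0737 with 1 pool left out. Smarcb1 was -0.0282 with median scaling and -0.0258 to 0.0409 with 1 pool left out, and Smarca2 was -0.000167 with the mean of all probes. With 1 pool left out, Ezh1 ranged from -0.0564 to 0.00848, Hdac6 from -0.00455 to 0.1, Hdac1 from -0.064 to 0.0294 and Smarca4 from -0.0977 to 0.0206. Hdac9, Kdm4d, Prmt8 and Dnmt3bos lay too near background for a fold change to be given.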
